A study of Mus musculus with 20 samples.

Results

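Tumor tissue of mice homozygous for a MYCN transgene was compared with ganglion tissue of mice of the same genotype. The comparison took the arrays whose titles name a homozygous tumor, numbered 1 to 4, and the arrays whose titles name a homozygous ganglion, numbered 1 and 2, which are 6 of the 20 arrays of the series. Both groups carry the label MYCN Tg homozygote on a mixed 129+Ter/SvJcl background, and the mice were maintained by crosses with wild-type mice of that strain, so neither genotype nor background separates tumor from ganglion by label. No drug or other treatment is recorded. Tissues were dissected, frozen in liquid nitrogen and homogenized in Isogen, and 40 ng of total RNA went through 2 cycles of amplification before hybridization to Affymetrix Mouse Genome 430 2.0 arrays, which measure transcripts with short oligonucleotide probe sets. The labels do not give age, which ganglia were taken, the promoter that drives the transgene, or whether arrays of a group came from separate animals. The p-values therefore measure spread among arrays, which may be partly technical. In the comparison of tumor with ganglion, the other arrays of the series entered the fit only to estimate the spread of each gene. That spread is pooled over the 7 groups of the series, not taken from the 6 compared arrays alone.

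MYCN is a transcription factor of the MYC family that is active in sympathetic precursors before birth and is amplified in aggressive neuroblastoma, the childhood tumor of the sympathetic lineage. Sympathetic ganglia hold noradrenergic neurons wrapped by satellite glia, with Schwann cells, vessels and connective tissue around them. In transgenic mice that express MYCN in this lineage, ganglia hold proliferating neuroblasts early in life, and tumors arise from such tissue. The comparison therefore sets tumor against ganglion within 1 transgenic genotype.

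The deposited values were probe set intensities scaled so that each array had a trimmed mean of 100, and fold changes are on the scale log2(intensity + 16), where 1 unit is a 2-fold difference for bright genes and less than the true difference for dim ones. Over all probe sets the 4 tumors correlated with each other at 0.976 to 0.990 and the 2 ganglia at 0.984, while tumors 1 and 2 correlated with the ganglia at 0.933 to 0.953 and tumors 3 and 4 at 0.916 to 0.936. The beta-actin control, which reads the 3' end of a transcript against its 5' end, gave ratios of 2.44 to 2.81 in the tumors and 4.02 and 4.68 in the ganglia, so RNA quality or length moved with the groups, and its part in the results was not tested. The GAPDH control gave 2.77 to 3.61 in the tumors and 3.75 and 3.91 in the ganglia. Sex-linked genes, of which 4 were tested and 0 passed, followed single arrays: Xist, transcribed from the inactive X of females, read 18 and 11.9 in tumors 1 and 4 and between 2334 and 2707 in the other 4 arrays. Tumors 1 and 4 also gave 433 and 364 for the Y-linked Eif2s3y, against at most 4.31 elsewhere. Neither ganglion thus matched tumors 1 and 4 in sex.

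Some genes that define sympathetic neurons were read as a look at the labelled tissue. Isl1, a LIM homeodomain factor of sympathetic neurons, read 3010.2, 2748, 2114 and 1886 in tumors 1 to 4 and 2820.5 and 2572 in ganglia 1 and 2. Hand2, a factor required for noradrenergic differentiation, read 1719, 1855, 1406 and 1435 in tumors 1 to 4 and 1532 and 1707 in ganglia 1 and 2. Both groups therefore read these factors at similar levels and overlapped. Ddc, the decarboxylase that makes dopamine, read between 3686 and 4264 on all 6 arrays (log2 fold change -0.12, adjusted p = 0.796). These members of the lineage lists, like Phox2a at 0.01 (adjusted p = 0.993) and the neuronal gene Stmn2 at -0.34 (adjusted p = 0.593), were named after their values were seen. Other genes of these lists fell: Th and Dbh, which make noradrenaline, had log2 fold changes of -1.96 (adjusted p = 0.0241) and -1.60 (adjusted p = 0.00658). The neuronal filament gene Prph was at -4.13 (adjusted p = 0.000177). The level genes above thus do not stand for their lists.

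Of 15139 genes tested, 3283 changed between tumor and ganglion at an adjusted p of at most 0.05 (limma, Benjamini-Hochberg adjustment), which is 21.7% of them. Of these, 1419 rose in the tumors (9.37%) and 1864 fell (12.3%), with median log2 fold changes of 0.93 and -1.20. The counts given below for each gene list in the reported fit are to be read beside these shares. List counts with a ganglion left out are not, since fewer of all genes tested passed in those fits too. Large differences were mostly losses: 1452 genes lay at -1 or lower, of which 1237 passed, and 46 at -3 or lower, of which 45 passed, while 699 lay at 1 or higher, of which 591 passed, and only Cd5l at 3 or higher. In 8693 genes (57.4%) the 4 tumors lay wholly above or wholly below the 2 ganglia. Of the 3283 genes that changed, 3280 did so, and such separation is therefore no further support for a called gene. Each array was centred on its own median as an alternative, and this raised the higher share of all calls from 43.2% to 59.3%, with 2099 higher and 1443 lower genes, since it shifted the median gene by 0.16. Fewer genes passed when either ganglion was left out, so that 1 ganglion stood for the group, and fewer without ganglion 2 than without ganglion 1. The cause of that difference was not tested. No gene called in the reported fit was called in the opposite direction in any of these settings.

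**Figure D1:**
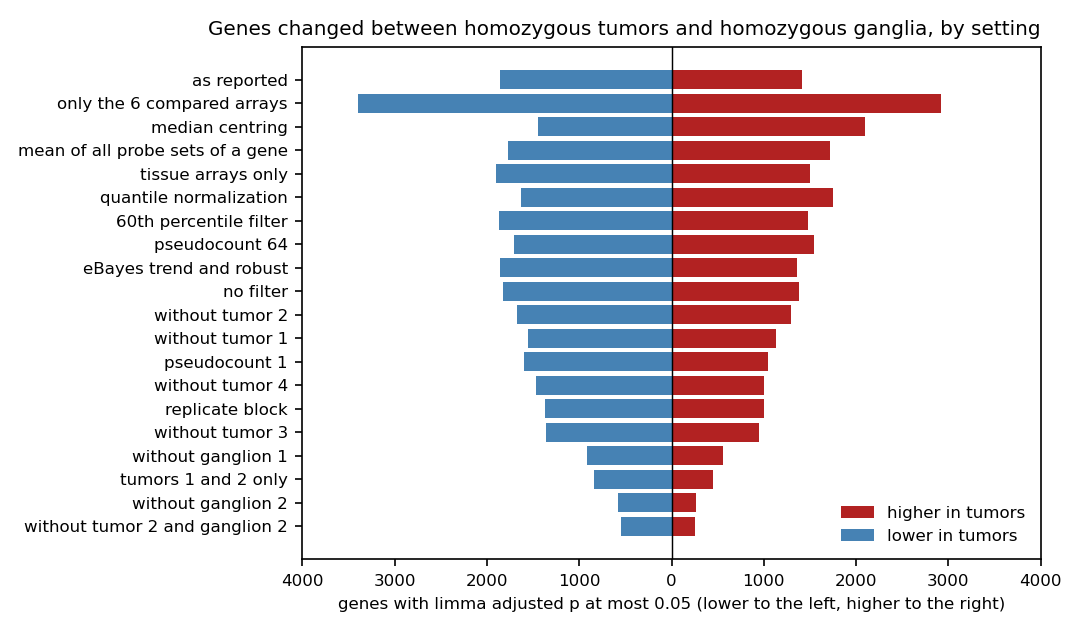
Number of genes that passed an adjusted p of 0.05 in limma, higher (red, to the right) and lower (blue, to the left) in homozygous tumors than in homozygous ganglia, as reported and under each alternative. The sum of both directions is 3283 as reported, 848 without ganglion 2, 799 without tumor 2 and ganglion 2, and 6317 when only the 6 compared arrays are fitted.

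Genes of cell division were higher in the tumors. Of the 46 tested genes of mitosis, 26 rose and 0 fell, with a median log2 fold change of 0.87 against -0.03 over all genes tested. Plk1, the polo-like kinase that drives entry into mitosis and spindle assembly, read 277, 262, 433 and 404 in tumors 1 to 4 and 73.3 and 71 in ganglia 1 and 2. The lowest tumor exceeded the higher ganglion several-fold, and the log2 fold change was 2.0 ± 0.38 (SE, limma adjusted p = 0.00134). Ccnf, the cyclin that directs a ubiquitin ligase in G2, read 136, 137, 186 and 149 in tumors 1 to 4 and 39.4 and 44.2 in ganglia 1 and 2. The 4 tumors again lay apart from both ganglia, with a log2 fold change of 1.53 ± 0.22 (SE, limma adjusted p = 0.000161). Ttk, a kinase of the spindle checkpoint, rose by 1.15 (adjusted p = 0.00138), and Tpx2, which targets Aurora A to the spindle, by 1.34 (adjusted p = 0.00158). The ganglia themselves differed: the mean log2 value over the mitosis genes was 8.61 in ganglion 1 and 8.09 in ganglion 2, against 9.17 to 9.30 in the tumors. Without ganglion 2, 3 mitosis genes rose, and without ganglion 1, 21. Plk1 and Ccnf passed whichever array was left out, whereas Ttk and Tpx2 had adjusted p of 0.0534 and 0.0564 without ganglion 2. Markers of glia summed to 3301 to 4339 in the tumors and to 12876 and 13058 in the ganglia, and their part in this difference was not tested.

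Many promoters of mitotic genes carry a CCAAT box, bound by the factor NF-Y, together with a cell cycle homology region through which the DREAM and B-MYB complexes restrict transcription to G2 and mitosis. The letters CCAAT and TTTGAA were searched on both strands of the 250 bases before the start of each gene, in RefSeq sequence of build GRCm38.p6. Of the 26 mitosis genes that rose, 19 had a window in the table, and 17 of these held CCAAT (89.5%), against 26 of 37 mitosis genes tested (70.3%) and 4339 of 12123 genes tested (35.8%). TTTGAA was in 8 of the 19 (42.1%) and in 10.8% of the genes tested, and the same 8 windows held both motifs, as did 3.97% of the genes tested. Over all 27025 genes of the table, 34.5% held CCAAT and 16.3% TTTGAA. A match is only a description of these letters. The 4 windows below are those of the 8 with both motifs whose genes had the largest fold change, chosen after the values were seen, and show the motifs in capitals on either strand (ATTGG and TTCAAA are the reverse complements). They are given 5′ to 3′ in the direction of the gene and end at its start site.
Ccnf, chr17:24251410-24251659, minus strand: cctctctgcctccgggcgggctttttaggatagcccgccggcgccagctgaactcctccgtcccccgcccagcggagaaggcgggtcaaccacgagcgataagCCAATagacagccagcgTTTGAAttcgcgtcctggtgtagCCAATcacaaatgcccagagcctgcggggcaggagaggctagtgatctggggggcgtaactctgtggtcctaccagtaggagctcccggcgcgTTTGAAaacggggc
Ube2c, chr2:164769679-164769928, plus strand: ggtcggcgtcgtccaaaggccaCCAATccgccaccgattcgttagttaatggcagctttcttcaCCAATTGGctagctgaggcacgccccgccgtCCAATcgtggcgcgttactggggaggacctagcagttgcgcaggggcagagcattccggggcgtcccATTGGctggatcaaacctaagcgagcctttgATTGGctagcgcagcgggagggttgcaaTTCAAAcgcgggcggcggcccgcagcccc
Kif11, chr19:37376132-37376381, plus strand: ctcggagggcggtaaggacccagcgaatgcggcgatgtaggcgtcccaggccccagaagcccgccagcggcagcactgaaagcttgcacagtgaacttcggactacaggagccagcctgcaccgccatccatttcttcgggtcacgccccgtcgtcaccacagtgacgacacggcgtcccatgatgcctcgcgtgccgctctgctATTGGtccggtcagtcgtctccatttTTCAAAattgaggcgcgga
Cdc20, chr4:118437344-118437593, minus strand: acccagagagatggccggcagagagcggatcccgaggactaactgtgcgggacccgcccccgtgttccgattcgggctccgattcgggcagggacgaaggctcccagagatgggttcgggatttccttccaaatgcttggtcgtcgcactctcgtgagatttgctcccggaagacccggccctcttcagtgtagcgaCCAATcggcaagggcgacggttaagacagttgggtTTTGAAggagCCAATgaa
Ube2c, the ubiquitin-conjugating enzyme of the anaphase-promoting complex, read 542, 572, 511 and 488 in tumors 1 to 4 and 231 and 144 in ganglia 1 and 2. Kif11, the kinesin that separates the spindle poles, read 338, 253, 565 and 390.2 in tumors 1 to 4 and 179 and 89.9 in ganglia 1 and 2. Cdc20, the activator of the anaphase-promoting complex, read 2156, 2494, 2344 and 2579 in tumors 1 to 4 and 1127 and 814 in ganglia 1 and 2. In each of these the lowest tumor exceeded the higher ganglion, and ganglion 2 was the lowest array. Their log2 fold changes were 1.45, adjusted p = 0.0103, then 1.43, adjusted p = 0.00482, and 1.30, adjusted p = 0.00193, and without ganglion 2 the adjusted p were 0.179, 0.159 and 0.0701.

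Homologous repair and fork protection genes rose in the largest share of any list, with 15 of 21 tested higher and 0 lower and a median of 0.87. Rad54l, a motor protein of strand exchange, read 369, 259.5, 518 and 485 in tumors 1 to 4 and 138 and 92 in ganglia 1 and 2. Its log2 fold change was 1.67 ± 0.25 (SE, limma adjusted p = 0.000221). Clspn, the claspin adaptor that carries the signal from ATR to CHK1 at stalled forks, read 346, 279, 463 and 402 in tumors 1 to 4 and 138 and 117 in ganglia 1 and 2. Brca1, which loads the repair machinery at broken ends, read 432, 383, 491 and 442 in tumors 1 to 4 and 200.4 and 153 in ganglia 1 and 2. In these 3 genes each tumor was above both ganglia, and the log2 fold changes of Clspn and Brca1 were 1.42, adjusted p = 0.000519, and 1.24, adjusted p = 0.000308. Rad54b, a relative of Rad54l, rose by 1.32 (adjusted p = 0.000759). All 4 passed with any array left out. The list as a whole had 4 higher genes without ganglion 2 and 12 without ganglion 1.

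In the DNA replication list 13 of 37 tested genes rose and 0 fell, with a median of 0.77. Rfc5, a subunit of the clamp loader, read 349.9, 303, 384 and 392 in tumors 1 to 4 and 128 and 106 in ganglia 1 and 2. The gap between tumors and ganglia was wide beside the spread within either, at a log2 fold change of 1.48 ± 0.18 (SE, limma adjusted p = 2.58e-05). Ticrr, a factor that activates replication origins, rose by 1.06 (adjusted p = 0.00194). Gins1 and Mcm6, parts of the replicative helicase, rose by 1.0 (adjusted p = 0.00133) and 1.08 (adjusted p = 0.0058), and without ganglion 2 their adjusted p were 0.0655 and 0.143. Without ganglion 2 the list had 2 higher genes, and without ganglion 1, 9.

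Among cyclins, cyclin-dependent kinases, their inhibitors and E2F factors, 8 of 23 tested genes rose and 0 fell (median 0.43). E2f8, an atypical E2F that represses S-phase genes, read 429, 380.1, 518 and 496 in tumors 1 to 4 and 131 and 82 in ganglia 1 and 2. The tumors stood apart from the ganglia, with a log2 fold change of 1.97 ± 0.30 (SE, limma adjusted p = 0.000208). Its relative E2f7 rose by 1.05 (adjusted p = 0.00264), E2f3, an activating E2F, by 0.85 (adjusted p = 0.00766) and the pocket protein gene Rbl1 by 0.91 (adjusted p = 0.00584). Of these, E2f8 passed with any array left out, while the adjusted p without ganglion 2 were 0.0867 for E2f7, 0.136 for E2f3 and 0.13 for Rbl1. The list had 1 higher gene without ganglion 2 and 5 without ganglion 1.

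**Figure D2:**
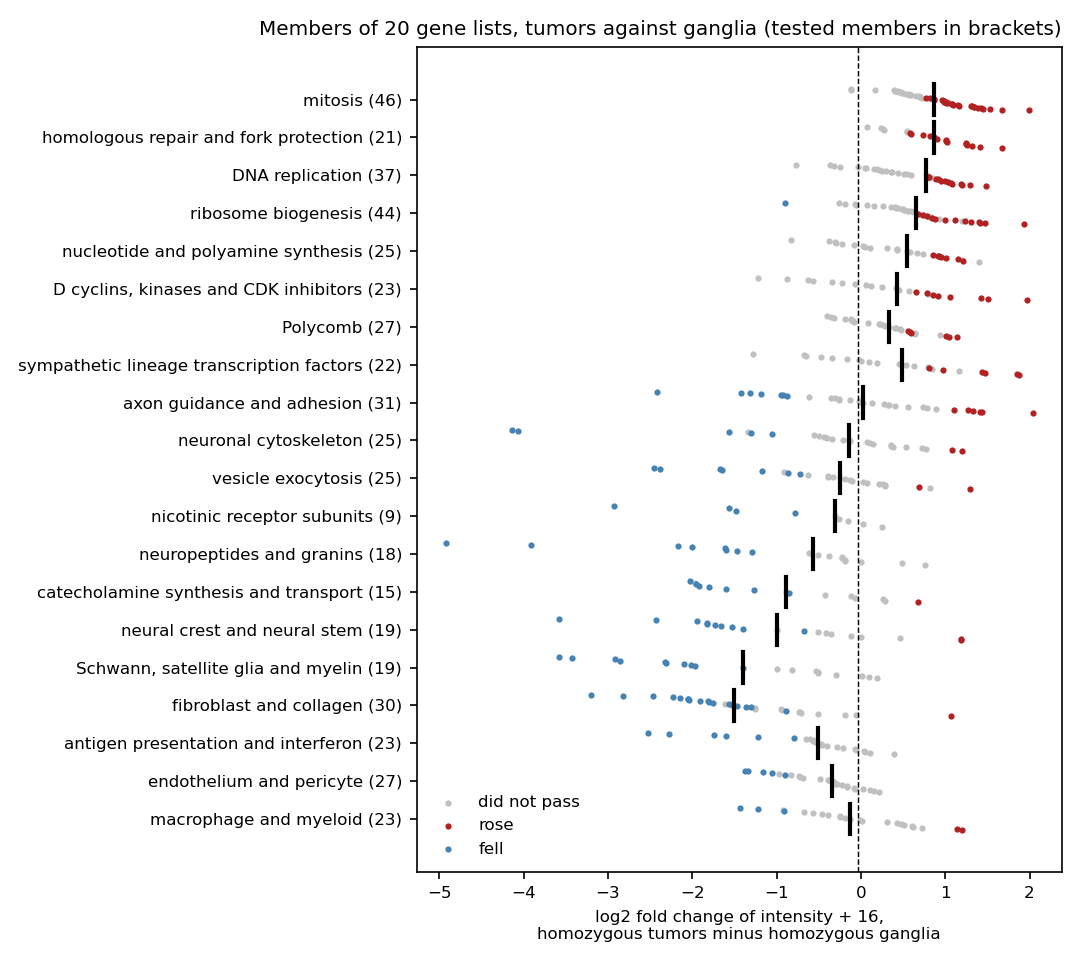
Log2 fold change, homozygous tumor minus homozygous ganglion on the log2(intensity + 16) scale, of each tested member of 20 gene lists; 1 point is 1 gene, red genes rose, blue genes fell, grey genes did not pass an adjusted p of 0.05, the bar is the median of the list and the dashed line the median of all genes tested. The medians of mitosis, replication and repair lie to the right of that line, and those of glia, fibroblast and catecholamine genes to the left.

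Ribosome biogenesis, a program in which MYC proteins are known to act, had 13 of 44 tested genes higher and 1 lower, with a median of 0.65. Rrp1b, a nucleolar protein of ribosomal RNA processing, read 320.0, 349, 305 and 359.9 in tumors 1 to 4 and 80.6 and 70.4 in ganglia 1 and 2. All tumors exceeded both ganglia, and the log2 fold change was 1.93 ± 0.25 (SE, limma adjusted p = 5.14e-05). Polr1b, the second largest subunit of RNA polymerase I, read 137, 131, 121 and 137 in tumors 1 to 4 and 38.1 and 40.6 in ganglia 1 and 2. The separation was again complete, at 1.41 ± 0.24 (SE, limma adjusted p = 0.000683). Ddx21, a helicase of the nucleolus, and Rrp9, a component of the small subunit processome, rose by 1.24 (adjusted p = 0.00182) and 1.40 (adjusted p = 0.00231), and their adjusted p were 0.0571 and 0.101 without ganglion 2. Nop10, a small protein of the pseudouridylation complex named here after its value was seen, fell by 0.90 (adjusted p = 0.0419), and its adjusted p was 0.247 and 0.142 without ganglion 1 or 2 and below 0.05 only where the array left out was tumor 2. The canonical MYC site, CACGTG, was in the upstream window of 1 of 12 ribosome genes that rose and had a window (8.33%) and of 8.02% of the genes tested. Without ganglion 2, 2 of the list rose, and without ganglion 1, 7.

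Of 25 tested genes of nucleotide and polyamine synthesis, 7 rose and 0 fell (median 0.55). Rrm1, the large subunit of ribonucleotide reductase, rose by 1.01 (adjusted p = 0.00577), and Dut, which removes dUTP, by 0.92 (adjusted p = 0.00366). The purine pathway genes Pfas and Gart rose by 0.96 (adjusted p = 0.00823) and 0.93 (adjusted p = 0.0112). None of these 4 passed without ganglion 2, nor did Gart without ganglion 1. Serine, one-carbon and stress response genes had 2 of 21 tested members higher (9.5%, beside 9.37% over all genes) and 0 lower. The 2 were Mthfd1 at 0.97 (adjusted p = 0.0164) and Psat1 at 0.53 (adjusted p = 0.0448). Neither passed with ganglion 1 or ganglion 2 left out, and Psat1 had adjusted p of 0.103, 0.0859 and 0.0655 without tumor 1, 2 or 4.

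Polycomb genes, which encode the complexes that keep developmental genes silent, had 6 of 27 tested members higher and 0 lower (median 0.33). Ezh2, the histone H3 lysine methyltransferase of the second complex, read 1130.5, 1044, 1255 and 1244 in tumors 1 to 4 and 596 and 454 in ganglia 1 and 2. Each tumor lay above both ganglia, with a log2 fold change of 1.14 ± 0.18 (SE, limma adjusted p = 0.000365). Phc1, a core protein of the first complex, rose by 1.04 (adjusted p = 0.00155), and both passed with any array left out. Pcgf6, which defines a variant of the first complex, rose by 1.01 (adjusted p = 0.00729, 0.0988 without ganglion 2). Pcgf3, of another variant, rose by 0.58 (adjusted p = 0.0263) and did not pass with either ganglion left out. Its adjusted p was 0.067 and 0.0613 without tumor 3 or 4. Without ganglion 1 or 2 the list had 4 and 3 higher genes.

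Of 15 tested imprinted and oncofetal genes 2 rose (13.3%) and 1 fell (6.7%), beside 9.37% and 12.3% over all genes. Dlk1, an imprinted transmembrane protein related to Notch ligands and known from neuroblastoma and from chromaffin precursors, read 1339, 1470.5, 1745 and 1709 in tumors 1 to 4 and 238 and 185 in ganglia 1 and 2. No tumor came near the ganglia, and the log2 fold change of 2.80 ± 0.33 (SE, limma adjusted p = 2.75e-05), was exceeded among the genes tested only by Cd5l and Spock1. Igf2, the imprinted fetal growth factor, read 38, 25.1, 36 and 20.9 in tumors 1 to 4 and 305 and 427 in ganglia 1 and 2. Here both ganglia were far above the tumors, at a log2 fold change of -3.05 ± 0.66 (SE, limma adjusted p = 0.00329), although the adjusted p was 0.0663 without ganglion 2. Magel2, an imprinted gene of the Prader-Willi region, rose by 1.24 (adjusted p = 0.0215), and its adjusted p was 0.123, 0.138 and 0.0588 without ganglion 1, ganglion 2 or tumor 3. The other 12 of 15 tested members of the list did not pass.

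The genes with the highest fold change came from several functions. Cd5l, a secreted protein made by tissue macrophages, had the highest log2 fold change, 4.08 ± 0.63 (SE, limma adjusted p = 0.000257). It read 80.5, 529.8, 612 and 605 in tumors 1 to 4 and 13.9 and 0.681 in ganglia 1 and 2, so tumor 1 lay far below the other tumors but still above the ganglia. Gpnmb, a glycoprotein of lysosomes found in macrophages and pigment cells, rose by 2.19 (adjusted p = 0.000238). The dopamine receptor gene Drd4 read 58.5, 90.6, 83.2 and 102 in tumors 1 to 4 and 3.06 and 5.95 in ganglia 1 and 2. A dimmer Drd4 probe set did not rise, with means of 16.3 in tumors and 18.6 in ganglia (log2 difference -0.112). The serotonin transporter gene Slc6a4 read 67.5, 174, 227 and 311 in tumors 1 to 4 and 2.28 and 24.8 in ganglia 1 and 2. Both were near background in the ganglia, and in Slc6a4 the tumors themselves spanned a wide range; their log2 fold changes were 2.26, adjusted p = 7.75e-05, and 2.79, adjusted p = 0.000561. Soga3 read 237, 211, 228 and 213 in tumors 1 to 4 and 26 and 40.3 in ganglia 1 and 2, with the smallest adjusted p of the 12 highest genes and a log2 fold change of 2.29 ± 0.22 (SE, limma adjusted p = 3.71e-06). Klhl32, a member of the kelch-like family, rose by 2.60 (adjusted p = 1.44e-05), Ppp1r17, a phosphatase inhibitor, by 2.09 (adjusted p = 0.00113) and Mbnl3, a splicing regulator, by 2.09 (adjusted p = 0.00145, 0.0621 without ganglion 2). Spock1, a matrix proteoglycan, rose by 2.89 (adjusted p = 0.00105), but its ganglia read 163 and 17.8, and the adjusted p was 0.0719 without ganglion 2. Dgkk, a diacylglycerol kinase, rose by 2.79 (adjusted p = 0.03) and did not pass with either ganglion left out. Its adjusted p was 0.0753 and 0.0683 without tumor 3 or 4.

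**Figure D3:**
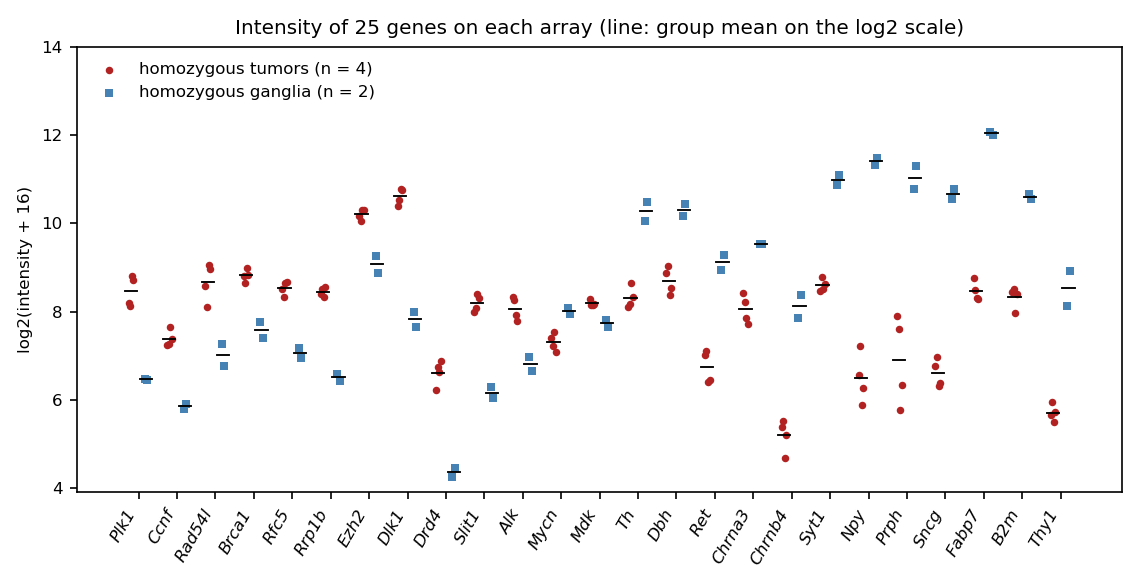
Intensity, as log2(intensity + 16), of 25 named genes on each of the 6 arrays; red circles are the 4 tumors, blue squares the 2 ganglia, and lines the group means on that scale. Plk1, Rfc5, Dlk1 and Slit1 are higher on all 4 tumors, and Npy, Prph, Syt1 and Fabp7 lower.

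Of 22 tested transcription factors of the sympathetic lineage, 6 rose and 0 fell (median 0.49). Tbx2, a T-box repressor of the noradrenergic core circuit in neuroblastoma, read 225, 233, 227 and 192 in tumors 1 to 4 and 74.3 and 63.2 in ganglia 1 and 2. Its tumors were tightly grouped above the ganglia, at a log2 fold change of 1.47 ± 0.21 (SE, limma adjusted p = 0.000144). Sox11, a SoxC factor of immature neurons, read 1717, 1843, 1442 and 1454 in tumors 1 to 4 and 905 and 725 in ganglia 1 and 2. The difference of 0.97 (adjusted p = 0.0018) had an adjusted p of 0.0653 without ganglion 2. Hoxd9, a posterior homeobox gene, rose by 1.87 (adjusted p = 0.00198). Meis2, a homeodomain cofactor, rose by 1.44 (adjusted p = 0.0187) and had adjusted p of 0.0831 and 0.166 without ganglion 1 or 2. The list had 2 higher genes without ganglion 2 and 3 without ganglion 1.

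Mouse Mycn, the endogenous counterpart of the transgene, read 153, 134, 170.4 and 120.4 in tumors 1 to 4 and 254 and 229 in ganglia 1 and 2. Its log2 fold change was -0.69 ± 0.34 (SE, limma adjusted p = 0.163), with every tumor below both ganglia. A dimmer Mycn probe set had means of 44.5 in tumors and 31.1 in ganglia, in the opposite direction. It is not known here whether either probe set reads the transgene. Of the MYC, MAX and MXD network, 2 of 13 tested genes rose (15.4%) and 1 fell (7.7%), beside 9.37% and 12.3% over all genes. Mga, a MAX partner, rose by 1.10 (adjusted p = 0.00796), Mlxip, a glucose-responsive relative, by 0.91 (adjusted p = 0.0273), and Myc fell by 1.22 (adjusted p = 0.0328). Mga did not pass without ganglion 2, and Mlxip and Myc did not pass with either ganglion left out. Without tumor 3 or 4 the adjusted p was 0.0558 and 0.0561 for Mlxip and 0.067 and 0.0675 for Myc. Myc also had 0.0607 without tumor 2.

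Of 15 tested genes of catecholamine synthesis and transport, 7 fell in the tumors and 1 rose, with a median of -0.89. Th, tyrosine hydroxylase, the rate-limiting enzyme of catecholamine synthesis, read 260.0, 273, 384 and 305 in tumors 1 to 4 and 1046 and 1426 in ganglia 1 and 2. The lowest ganglion exceeded the highest tumor by a wide margin, and the log2 fold change was -1.96 ± 0.59 (SE, limma adjusted p = 0.0241), but with 1 ganglion left the adjusted p was 0.087 or 0.207. Dbh, which converts dopamine to noradrenaline, read 453, 507, 318 and 352 in tumors 1 to 4 and 1133 and 1376 in ganglia 1 and 2. Its log2 fold change was -1.60 ± 0.38 (SE, limma adjusted p = 0.00658), and the adjusted p without ganglion 2 was 0.101. Maoa, the monoamine oxidase that degrades noradrenaline, read 772, 652, 552 and 476 in tumors 1 to 4 and 2268 and 2374 in ganglia 1 and 2. Maoa passed whichever array was left out, at -1.92 ± 0.27 (SE, limma adjusted p = 0.000145). So did Maob at -2.03, adjusted p = 0.00299, and the tetrahydrobiopterin enzymes Gch1 at -1.80, adjusted p = 0.00231, and Pts at -1.26, adjusted p = 0.000932. Ddc and the vesicular monoamine transporter Slc18a2, the latter named after its value was seen, were at -0.12 and -0.43 (adjusted p = 0.796 and 0.601). Glial markers moved in the same direction, with summed intensities of 3301 to 4339 in the tumors and 12876 and 13058 in the ganglia, and their part in the neuronal results was not tested. The list had 5 and 4 lower genes without ganglion 1 or 2.

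Neuropeptides and granins contributed some of the deepest losses, with 8 of 18 tested lower and 0 higher (median -0.56). Npy, neuropeptide Y, the main peptide of noradrenergic neurons, read 78.8, 133, 42.7 and 61.1 in tumors 1 to 4 and 2538 and 2861 in ganglia 1 and 2. On the log2(intensity + 16) scale, which understates the change of dim genes, no other gene tested fell as far, at -4.92 ± 0.54 (SE, limma adjusted p = 1.19e-05). Gal, galanin, fell by 2.01 (adjusted p = 0.000119) and Pcsk1, a convertase that cleaves peptide precursors, fell by 2.17 (adjusted p = 0.000615). These 3 passed with any array left out. Sst, somatostatin, fell by 1.29 (adjusted p = 0.000966, 0.0535 without ganglion 2). Vip, vasoactive intestinal peptide, read 243, 39.3, 30.5 and 28.6 in tumors 1 to 4 and 607 and 1956 in ganglia 1 and 2, with tumor 1 far above the other tumors. Its log2 fold change was -3.91, adjusted p = 0.0422, and the adjusted p was 0.0932 and 0.329 without ganglion 1 or 2 and up to 0.0898 without a tumor. The list had 7 and 3 lower genes without ganglion 1 or 2.

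Neuronal structure and release genes were called in both directions. Prph, peripherin, the intermediate filament of peripheral neurons, read 223, 179, 38.3 and 65.1 in tumors 1 to 4 and 1743 and 2491 in ganglia 1 and 2. Tumors 3 and 4 were lower than tumors 1 and 2, and all 4 were far below the ganglia, at a log2 fold change of -4.13 ± 0.61 (SE, limma adjusted p = 0.000177). Sncg, gamma-synuclein, read 92.7, 109, 63.8 and 67.7 in tumors 1 to 4 and 1486 and 1753 in ganglia 1 and 2. Sncg fell by 4.06 (adjusted p = 5.51e-06) and Stmn3, a microtubule-destabilizing stathmin, fell by 1.06 (adjusted p = 0.00195). Tuba4a, an alpha-tubulin, fell by 1.56 (adjusted p = 0.00299, 0.0922 without ganglion 2). In all, 5 of 25 tested cytoskeletal genes fell (20%) and 2 rose (8%), beside 12.3% and 9.37% over all genes. The 2 that rose were Nefm, a neurofilament subunit, by 1.20 (adjusted p = 0.0319) and Elavl3, a neuronal RNA-binding protein, by 1.08 (adjusted p = 0.00324), both named after their values were seen. Nefm did not pass with either ganglion left out, and had adjusted p of 0.0578, 0.0775 and 0.0611 without tumor 1, 3 or 4.

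Syt1, the calcium sensor of fast vesicle release, read 337, 427, 350.4 and 377 in tumors 1 to 4 and 1842 and 2163 in ganglia 1 and 2. The tumors held a narrow range below the ganglia, at a log2 fold change of -2.38 ± 0.22 (SE, limma adjusted p = 3.68e-06). Syn2, a synapsin that tethers vesicles, fell by 2.46 (adjusted p = 7.64e-05), Cplx2, a complexin that clamps fusion, fell by 1.67 (adjusted p = 0.000519) and Syt4 fell by 1.64 (adjusted p = 5.14e-05). All 4 passed with any array left out. Of 25 tested exocytosis genes 7 fell (28%) and 2 rose (8%), beside 12.3% and 9.37% over all genes. Syt7, a slow calcium sensor named after its value was seen, was among those that rose, by 1.30 (adjusted p = 0.0138). The adjusted p of Syt7 was 0.153 and 0.0614 without ganglion 1 or 2.

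Ganglionic synapses work through nicotinic acetylcholine receptors built mainly from the alpha3 and beta4 subunits, whose genes lie next to that of alpha5. Chrna3 read 326, 282, 215 and 195 in tumors 1 to 4 and 728 and 729 in ganglia 1 and 2. Chrnb4 read 25.6, 29.6, 9.74 and 20.7 in tumors 1 to 4 and 215 and 317 in ganglia 1 and 2. Chrna5 read 11.4, 13, 9.93 and 10.7 in tumors 1 to 4 and 54.7 and 76.3 in ganglia 1 and 2. All 3 neighbours were lower on each tumor than on either ganglion, and in Chrna5 the tumors were near background. The log2 fold changes were -1.49 ± 0.24 (SE, limma adjusted p = 0.000437) for Chrna3, -2.92 ± 0.30 (SE, limma adjusted p = 6.00e-06) for Chrnb4, and -1.57 ± 0.25 (SE, limma adjusted p = 0.000343) for Chrna5, and each passed with any array left out. Chrnb1, the beta subunit of muscle receptors, fell by 0.78 (adjusted p = 0.0384), which made 4 of 9 tested subunits lower and 0 higher. Chrnb1 did not pass with either ganglion left out, and had adjusted p of 0.0831, 0.0885 and 0.0687 without tumor 1, 3 or 4.

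Ion channel genes went both ways, with 4 of 24 higher and 4 lower (16.7% each). The L-type calcium channel genes Cacna1d and Cacna1c rose by 1.06 (adjusted p = 0.00305) and 1.01 (adjusted p = 0.0106), while Kcnq3, a subunit of the M current, fell by 2.18 (adjusted p = 0.00954) and Scn3b, a sodium channel beta subunit, fell by 1.17 (adjusted p = 0.00204). Cacna1d passed with any array left out. Cacna1c, Kcnq3 and Scn3b did not pass without ganglion 2, nor did Kcnq3 without ganglion 1.

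Among receptors of neuronal growth factors, 4 of 13 tested fell and 1 rose. Ret, the receptor tyrosine kinase for ligands of the GDNF family, read 112, 122, 69.1 and 70.9 in tumors 1 to 4 and 476 and 608 in ganglia 1 and 2. Tumors 1 and 2 were nearer the ganglia than tumors 3 and 4, and the log2 fold change was -2.37 ± 0.46 (SE, limma adjusted p = 0.00155). Ngfr, the p75 neurotrophin receptor, fell by 1.73 (adjusted p = 0.00366, 0.0955 without ganglion 2) and Ntrk2, the BDNF receptor, fell by 0.94 (adjusted p = 0.00593, 0.102 without ganglion 2). Alk, the receptor tyrosine kinase mutated in part of neuroblastomas, read 304, 289, 225 and 203 in tumors 1 to 4 and 109.9 and 85.3 in ganglia 1 and 2. Alk rose by 1.25 (adjusted p = 0.00483, 0.0969 without ganglion 2).

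Midkine is a heparin-binding growth factor whose known receptors include Alk, Ptprz1, Notch2 and syndecans. Mdk read 297, 268, 269 and 271 in tumors 1 to 4 and 207 and 186 in ganglia 1 and 2. Each tumor was above both ganglia, but the difference did not pass, at a log2 fold change of 0.46 ± 0.29 (SE, limma adjusted p = 0.279). That SE pools the spread within all 7 groups of the series. Mdk was 340 ± 108 (SD, n = 4) in hemizygous tumors and 277 ± 13.9 (SD, n = 4) in the homozygous tumors. Ptprz1, a receptor phosphatase, fell by 1.12 (adjusted p = 0.0227), but its adjusted p was 0.102, 0.174 and 0.0548 without ganglion 1, ganglion 2 or tumor 3. Notch2 was at -0.40, adjusted p = 0.698, and the Notch target Hes1 at -0.77, adjusted p = 0.285. The syndecan gene Sdc2 fell by 1.63 (adjusted p = 0.00126), Itga6, a laminin receptor subunit, fell by 1.34 (adjusted p = 0.00231), and the glypican gene Gpc2 rose by 0.88 (adjusted p = 0.0111). Itga6 did not pass without ganglion 2, and Gpc2 did not pass with either ganglion left out. In all, 4 of 16 tested genes of the midkine list fell (25%) and 2 rose (12.5%). Of 23 tested Notch genes, 3 rose (13%) and 2 fell (8.7%), beside 9.37% and 12.3% over all genes, and none passed with either ganglion left out. The ligand Jag2 was at 1.27, adjusted p = 0.00873, and the DNA-binding factor Rbpj at 1.12, adjusted p = 0.0208 (0.0567 without tumor 3). The repressor Hey2 was at -1.76, adjusted p = 0.0139, and the inhibitory ligand Dll3 at -0.97, adjusted p = 0.0179.

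Axon guidance genes rose and fell in nearly equal number, 6 and 7 of 31 tested. Slit1, a secreted repellent, read 238, 256, 319.7 and 302 in tumors 1 to 4 and 61.7 and 49.6 in ganglia 1 and 2. All tumors lay far above the ganglia, at 2.04 ± 0.29 (SE, limma adjusted p = 0.000154). Robo2, a Slit receptor, rose by 1.41 (adjusted p = 0.00227, 0.0571 without ganglion 2), and Sema3a, a semaphorin that repels sympathetic axons, by 1.28 (adjusted p = 0.000738). Slit2 and Robo1, named after their values were seen, rose by 1.33 (adjusted p = 0.00593) and 1.43 (adjusted p = 0.00513), each with an adjusted p above 0.05 without ganglion 2 (0.122 and 0.0719). Nrp1, the neuropilin that binds Sema3a, read 215, 279.8, 138 and 157 in tumors 1 to 4 and 961 and 1240.4 in ganglia 1 and 2. Nrp1 went the other way from its ligand, at -2.42 ± 0.45 (SE, limma adjusted p = 0.00117). Without ganglion 1, 5 genes of the list rose and 2 fell, and without ganglion 2, 2 and 2.

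Of 19 tested glial genes, 10 fell in the tumors and 0 rose, with a median of -1.40. In bulk tissue, fewer cells of a type and less RNA per cell cannot be told apart. Fabp7, the fatty acid binding protein of satellite glia and neural stem cells, read 415, 345, 299.7 and 295 in tumors 1 to 4 and 4299.9 and 4104 in ganglia 1 and 2. The tumors lay within a narrow range far below the ganglia, at a log2 fold change of -3.58 ± 0.38 (SE, limma adjusted p = 7.87e-06). Pmp22, a protein of peripheral myelin, read 291, 304, 318 and 394 in tumors 1 to 4 and 1524 and 1865 in ganglia 1 and 2. It fell by 2.32 (adjusted p = 3.62e-05). The myelin protein gene Mal fell by 2.92 (adjusted p = 6.26e-06) and Entpd2, an ectonucleotidase of glia, fell by 2.10 (adjusted p = 2.58e-05). All 4 passed with any array left out. The intensities of the glial list summed to 3958, 4339, 3301 and 3769 in tumors 1 to 4 and 13058 and 12876 in ganglia 1 and 2.

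The neural crest and neural stem list overlapped in part with glia, and 10 of its 19 tested genes fell while 2 rose. Prom1, a membrane protein of stem cells, fell by 2.43 (adjusted p = 6.00e-06), the adhesion gene Cdh6 fell by 1.95 (adjusted p = 0.000334) and Sox2, a factor of glial and stem cells, fell by 1.53 (adjusted p = 0.000644). These passed with any array left out. The genes that rose, named after their values were seen, were Lgr5, a Wnt-associated receptor, at 1.19, adjusted p = 0.00311, and Msi1, an RNA-binding protein of precursors, at 1.18, adjusted p = 0.0104, with adjusted p of 0.0568 and 0.151 without ganglion 2.

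Fibroblast and collagen genes fell in the largest number of any list, 18 of 30 tested, with 1 higher and a median of -1.50. Thy1, a surface glycoprotein of fibroblasts and neurons, read 34.6, 45.6, 28.8 and 36.6 in tumors 1 to 4 and 265 and 469 in ganglia 1 and 2. It fell by 2.83 (adjusted p = 7.41e-05). Pdgfra, the receptor that marks fibroblasts, fell by 1.91 (adjusted p = 0.000316), Col6a2, a chain of collagen VI, fell by 2.05 (adjusted p = 8.95e-05) and Sparc, a matrix glycoprotein, fell by 1.57 (adjusted p = 0.000679). All 4 passed with any array left out. The 2 brightest members, Col3a1 and Dcn, were at -1.25, adjusted p = 0.108, and -2.22, adjusted p = 0.0351. Dcn did not pass with either ganglion left out, and had adjusted p of 0.0638, 0.074 and 0.059 without tumor 1, 3 or 4. Fbln1, a fibulin named after its value was seen, was the member that rose, by 1.07 (adjusted p = 0.00109, 0.0658 without ganglion 2). The list summed to 9652, 8733, 8148 and 9517 in tumors 1 to 4 and 26966 and 29373 in ganglia 1 and 2. Without ganglion 2, 9 genes fell.

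**Figure D4:**
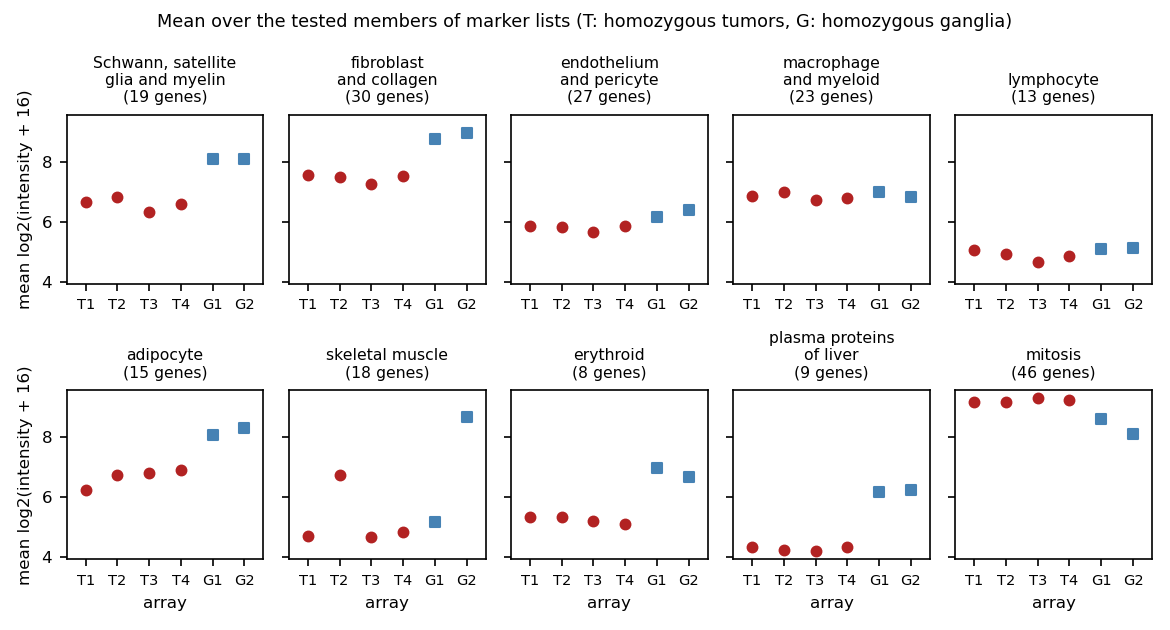
Mean log2(intensity + 16) of the tested members of 10 marker lists on each of the 6 arrays, with tumors 1 to 4 (T, red circles) and ganglia 1 and 2 (G, blue squares) on the horizontal axis. Glia, fibroblast, adipocyte, erythroid and plasma protein genes are higher on both ganglia, macrophage genes are nearly level, mitosis genes are lower on the ganglia, and skeletal muscle is high on ganglion 2 and tumor 2.

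Fewer genes of vessels and blood cells passed. Of 27 tested genes of endothelium and pericytes 5 fell and 0 rose (median -0.35): Mcam was at -1.34, adjusted p = 0.00503, Emcn at -1.17, adjusted p = 0.00898, Sox17 at -1.37, adjusted p = 0.00984, and Tek, the angiopoietin receptor, at -0.90, adjusted p = 0.0166, while the bright pericyte genes Rgs5 and Acta2 were at -0.17 and -0.07 (adjusted p = 0.825 and 0.953). The number of lower genes was 2 without ganglion 1 and 1 without ganglion 2, and the list summed to 2565, 2714, 1874 and 2163 in tumors 1 to 4 and 2464 and 3824 in ganglia 1 and 2. Of 23 tested macrophage genes 2 rose (8.7%) and 3 fell (13%), near the shares over all genes (9.37% and 12.3%). Lyz2, lysozyme, and Cd68, of macrophage lysosomes, rose by 1.20 (adjusted p = 0.00978) and 1.14 (adjusted p = 0.0105). Adgre1, the F4/80 antigen, and Mrc1, the mannose receptor, fell, with log2 fold changes of -1.43 (adjusted p = 0.0157) and -1.22 (adjusted p = 0.00996), and Csf1r, the macrophage growth factor receptor, was at -0.67, adjusted p = 0.304. None of the 4 passed without ganglion 2, nor did Adgre1 without ganglion 1. The macrophage list summed to 4352, 5166, 3686 and 3844 in tumors 1 to 4 and 4270.4 and 3657 in ganglia 1 and 2, and the range of the tumors enclosed ganglion 1. Of 13 tested lymphocyte genes only the B cell gene Ms4a1 passed, at -0.96, adjusted p = 0.0228. Ms4a1 did not pass without ganglion 2, and had adjusted p of 0.0503 and 0.0608 without tumor 2 or 3. Zap70, a T cell kinase, and Ighm, the immunoglobulin mu chain, were at -0.38 and 0.10 (adjusted p = 0.267 and 0.824).

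Genes of antigen presentation and the interferon response were lower in the tumors for 6 of 23 tested and higher for 0 (median -0.51). B2m, beta-2-microglobulin, the light chain of MHC class I, read 335, 348, 232 and 319.6 in tumors 1 to 4 and 1606 and 1486 in ganglia 1 and 2. All 4 tumors were well below the ganglia, at a log2 fold change of -2.28 ± 0.26 (SE, limma adjusted p = 1.93e-05). The interferon-induced genes Ifi27 and Ifit1 fell, with log2 fold changes of -2.52 (adjusted p = 0.00072) and -1.74 (adjusted p = 0.000573), and H2-Aa, an MHC class II chain, fell by 1.60 (adjusted p = 0.00203). These 4 passed with any array left out. The MHC class I heavy chains H2-K1 and H2-D1, named after their values were seen, were at -0.47 and 0.39 (adjusted p = 0.392 and 0.518), and probe sets of these closely related genes may read each other's transcripts.

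Both ganglia also read genes of blood, liver and fat. Alas2, the erythroid enzyme of heme synthesis, read 32.4, 29, 18 and 2.12 in tumors 1 to 4 and 924 and 714 in ganglia 1 and 2. Hbb-b2, a beta-globin chain whose probe set can also match the near-identical Hbb-b1, and Slc4a1, the anion exchanger of red cells, fell, with log2 fold changes of -4.70 (adjusted p = 5.14e-05) and -2.95 (adjusted p = 0.00156). A dim Hbb-b2 probe set had means of 18.7 in tumors and 10.2 in ganglia, in the opposite direction. The 3 erythroid genes of 8 tested passed with any array left out, while the bright Tfrc, the transferrin receptor, which dividing cells also use, was at 0.26, adjusted p = 0.63. Alb, serum albumin of the liver, read 11.6, 21.6, 7.97 and 10.7 in tumors 1 to 4 and 426 and 439.6 in ganglia 1 and 2. Alb fell by 3.97 (adjusted p = 0.00902), Ttr, transthyretin, read by a probe set that can match other transcripts, fell by 4.89 (adjusted p = 0.0339) and Apoa1, an apolipoprotein, fell by 2.51 (adjusted p = 0.0314), but none of the 4 plasma protein genes that fell of 9 tested passed without ganglion 1 or without ganglion 2 (for Alb 0.0662 and 0.0905). With a tumor left out, Apoa1 had limma adjusted p of 0.0504 to 0.067, and Ttr had 0.0573, 0.0655 and 0.0642 without tumor 2, 3 or 4. The plasma protein list summed to 43.1, 34.2, 22.5 and 42.6 in tumors 1 to 4 and 1153 and 1271 in ganglia 1 and 2. Ucp1, the uncoupling protein of brown fat, read 167, 79.1, 276 and 294 in tumors 1 to 4 and 2922 and 2411 in ganglia 1 and 2. Ucp1 fell by 3.74 (adjusted p = 0.0399), and the fat cell genes Adipoq and Fabp4 fell, with log2 fold changes of -3.42 (adjusted p = 0.0336) and -3.05 (adjusted p = 0.0147), 3 of 15 tested, none of which passed without ganglion 1 or without ganglion 2. Their brightest members Car3 and Lpl were at -1.95 and -1.27 (adjusted p = 0.0971 and 0.0802), and the list summed to 2939, 5299, 5020.0 and 5839 in tumors 1 to 4 and 19026 and 19874 in ganglia 1 and 2. With a tumor left out, Ucp1 had limma adjusted p of 0.0544 to 0.084, and Adipoq had 0.069, 0.0603 and 0.0569 without tumor 1, 3 or 4. The skeletal muscle list summed to 296, 2569, 249.8 and 349 in tumors 1 to 4 and 647 and 12750.0 in ganglia 1 and 2, high on ganglion 2 and on tumor 2. Its 1 called gene of 18, Myl1, a myosin light chain, fell by 3.94 (adjusted p = 0.0089, 0.14 without ganglion 2). The muscle gene Myh1 was at -1.70, adjusted p = 0.617, and Tnnc2 at -2.88, adjusted p = 0.379. What part these tissues, glia and connective tissue have in the lower neuronal values of the tumors was not tested.

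Other genes with the lowest fold change had no list of their own. Tspan8, a tetraspanin, read 39.4, 97.9, 20.3 and 35 in tumors 1 to 4 and 1389 and 1543 in ganglia 1 and 2. It fell by 4.66 (adjusted p = 1.92e-06). Itm2a, a membrane protein of cartilage and muscle precursors, read 110.1, 129, 80.1 and 114 in tumors 1 to 4 and 2772 and 2987 in ganglia 1 and 2. It fell by 4.56 (adjusted p = 9.80e-06), and Lxn, latexin, an inhibitor of carboxypeptidases in sensory and other neurons, fell by 4.22 (adjusted p = 2.02e-06). Prr15 and Tppp3, the latter a tubulin polymerization protein, fell, with log2 fold changes of -3.78 (adjusted p = 2.45e-05) and -3.77 (adjusted p = 0.000123). In all 5 genes each tumor was below both ganglia, as the rule by which they were chosen required.

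In the metabolic and stress lists, the shares that rose or fell are to be read beside 9.37% and 12.3% over all genes. Of 28 tested genes of hypoxia and glycolysis 5 fell (17.9%) and 0 rose (median -0.32): the aldolase genes Aldoc and Aldoa fell, with log2 fold changes of -2.61 (adjusted p = 6.74e-05) and -1.33 (adjusted p = 0.00155), Ldhb, lactate dehydrogenase B, fell by 2.0 (adjusted p = 0.00034) and Slc2a1, the glucose transporter GLUT1, fell by 1.39 (adjusted p = 0.0038). Aldoa had an adjusted p of 0.0542 without ganglion 2 and Slc2a1 of 0.0626 without ganglion 1. Sterol synthesis had 3 of 19 lower (15.8%) and 0 higher, with Msmo1 at -1.63, adjusted p = 0.000714, Fdft1, squalene synthase, at -1.39, adjusted p = 0.00016, and Nsdhl at -0.92, adjusted p = 0.0233 (0.0656 and 0.244 without ganglion 1 or 2). In the p53 and apoptosis list 3 of 25 rose and 3 fell (12% each). Mdm2 and Mdm4, the inhibitors of p53, rose by 0.88 (adjusted p = 0.0361) and 0.84 (adjusted p = 0.00454), where another Mdm4 probe set went the opposite way, Zmat3, a p53 target, rose by 1.15 (adjusted p = 0.017), and Perp, another target, fell by 1.41 (adjusted p = 0.00309). Each of these 4 had an adjusted p above 0.05 without ganglion 2 (0.202, 0.107, 0.138 and 0.0712). Mdm2 was above 0.05 whichever array was left out (from 0.0545 to 0.202), and Zmat3 also without ganglion 1 (0.0925). Of 25 immediate early genes 2 rose (8.0%) and 1 fell (4.0%), with Nr4a2, a nuclear receptor of catecholamine neurons, at 1.86, adjusted p = 0.0123, and Ier5 at 0.94, adjusted p = 0.0273, both lost without ganglion 1 or 2. Ier5 also had adjusted p of 0.058 and 0.0703 without tumor 3 or 4. Of 10 tested adrenal genes 1 rose and 1 fell (10% each). The steroid hydroxylase gene Cyp21a1 rose by 0.72 (adjusted p = 0.0134) and Fdx1, which supplies electrons to steroid synthesis, fell by 0.73 (adjusted p = 0.0262), neither of them passing without ganglion 1 or 2. Fdx1 also had an adjusted p of 0.0618 without tumor 3. Chga, the granin of chromaffin cells, was at 0.77, adjusted p = 0.152.

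The median range over the 4 tumors was 0.42 log2 units, and 42 genes spanned more than 2 units among tumors. Tumors 1 and 2 were both above tumors 3 and 4 in 793 of the genes that fell and both below in 249, and in the genes that rose they were both below in 741 and both above in 186. Over all genes the corresponding numbers were 4192 above and 3938 below. Tumors 1 and 2 thus lay nearer the ganglia, as Prph, Ret and Chrna3 also show. With tumors 1 and 2 alone, 1290 genes passed, 452 higher and 838 lower.

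Ganglia of wild-type mice, labelled as 129+Ter/SvJcl, give the level without the transgene. Homozygous against wild-type ganglia had 770 of 15139 genes changed (5.09%), but that comparison shares the homozygous ganglia with the comparison above, so values are only set side by side. Without the transgene Plk1 had a mean of 12.1 ± 7.05 (SD, n = 4), in ganglia with it 72.1 ± 1.66 (SD, n = 2), and in the tumors 344 ± 86.8 (SD, n = 4). Rad54l had means of 18.5 ± 3.18 (SD, n = 4), then 115 ± 32.4 (SD, n = 2) and then 408 ± 118 (SD, n = 4) in the same order, and Ezh2 of 135 ± 18.1 (SD, n = 4), then 525 ± 100.2 (SD, n = 2) and then 1168 ± 100.1 (SD, n = 4). For these cell cycle, repair and Polycomb genes homozygous ganglia lay between the others: the log2 difference from wild-type ganglia was 1.69 ± 0.38 (SE), adjusted p = 0.0118 for Plk1, 1.91 ± 0.25 (SE), adjusted p = 7.63e-05 for Rad54l and 1.84 ± 0.18 (SE), adjusted p = 3.84e-06 for Ezh2. Over the mitosis list the mean log2 value was 6.03 in wild-type ganglia. The wild-type mean of Dlk1 was 39 ± 25.3 (SD, n = 4) and that of Slit1 was 2.70 ± 2.20 (SD, n = 4). The wild-type means of neuronal and glial genes were 3706 ± 491 (SD, n = 4) for Npy, 2234 ± 768 (SD, n = 4) for Prph and 4729 ± 471 (SD, n = 4) for Fabp7, beside 2699 ± 228 (SD, n = 2), 2117 ± 529 (SD, n = 2) and 4202 ± 139 (SD, n = 2) in the homozygous ganglia. Their log2 differences between these ganglia were -0.45 ± 0.54 (SE), adjusted p = 0.666 for Npy, -0.03 ± 0.61 (SE), adjusted p = 0.981 for Prph and -0.16 ± 0.38 (SE), adjusted p = 0.832 for Fabp7. Other such genes were already lower in homozygous than in wild-type ganglia: the log2 difference was -1.06 ± 0.28 (SE), adjusted p = 0.0329 for Gal, -1.32 ± 0.37 (SE), adjusted p = 0.0464 for Pcsk1 and -1.10 ± 0.30 (SE), adjusted p = 0.0399 for the myelin gene Mal. Tumors of hemizygous mice, which share no array with this comparison's ganglia, read 67.4 ± 84.1 (SD, n = 4) for Npy, 25.8 ± 25 (SD, n = 4) for Fabp7, 584 ± 75.3 (SD, n = 4) for Plk1 and 1856 ± 173 (SD, n = 4) for Dlk1. Fabp7 and other genes read lower than in the homozygous tumors, and some read higher. Slit1 read 44.1 ± 18.7 (SD, n = 4) where the homozygous tumors had 279 ± 38.1 (SD, n = 4) and the ganglia of homozygous mice 55.6 ± 8.54 (SD, n = 2). Meis2 read 326 ± 152 (SD, n = 4) beside 1459 ± 306 (SD, n = 4) in homozygous tumors, and Slc6a4 28.5 ± 19.4 (SD, n = 4) beside 195 ± 102 (SD, n = 4). The log2 difference, hemizygous minus homozygous tumors in the same fit, was -2.34 (limma adjusted p = 1.71e-05) for Slit1. It was -2.17 (adjusted p = 0.000913) for Meis2, -2.19 (adjusted p = 0.00265) for Slc6a4 and -3.26 (adjusted p = 9.82e-06) for Fabp7. B2m read higher, at 943 ± 282 (SD, n = 4) in hemizygous and 309 ± 52.2 (SD, n = 4) in homozygous tumors. The log2 difference was 1.53 (adjusted p = 0.000417) for B2m, 1.07 (adjusted p = 0.0219) for H2-Aa and 1.09 (adjusted p = 0.0108) for Cd68.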

How the data were processed

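The series holds 20 Affymetrix Mouse Genome 430 2.0 arrays, each with its own sample title. The values deposited by the authors are probe set intensity values on a linear scale, with a mean of 100 on every array after trimming 2% at each end. The program that summarized probes into probe sets is not given in sources used here. No detection calls were used, and precision is limited by how few arrays each group has. Of 45101 probe sets, 64 controls were left out, and of the other 45037 the platform annotation gave 1 gene symbol for 34945, several for 932 and none for 9160. Symbols were updated through gene identifiers for 34741 and kept for 204. Where a gene had several probe sets, the brightest on average over the 20 arrays stood for it (18193 genes), and genes above the 40th percentile of an array on at least 2 arrays were tested (15139). Probe positions were not analysed here.

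Groups came from the titles. Log2(intensity + 16) was fitted with limma 3.58.1 in R 4.3.3 (lmFit, eBayes) to 7 group means over 20 arrays, with 13 residual degrees of freedom, and the contrast homozygous tumor minus homozygous ganglion was tested two-sided with Benjamini-Hochberg adjustment over 15139 genes at 0.05. Every adjusted p in the text is from limma. The members, the 38 gene lists and the tests were chosen with earlier results of these data known. Named genes are, among those that passed with groups not overlapping, the 12 highest, the 12 lowest and up to 4 of each list with the smallest p, and, whether or not they passed, the 2 brightest of each cell type list and Mdk, Mycn, Alk, Notch2, Hes1, Ptprz1, Th and Dbh. Clone names, sex-linked genes and probe sets called x_at were kept out of the highest and lowest. Other named genes are said to be chosen after their values were seen. Of 166 named genes, 103 had 207 other probe sets, and 4 of these, of Ighm, Mdm4 and Tfrc, opposed the one used by more than 0.5 log2 units. Alternatives were median centring, quantile normalization, pseudocounts of 1 and 64, other filters, all probe sets averaged, other sets of arrays, eBayes with trend and robust settings, a replicate block and leaving out each array. The steps were tested on simulated data. Promoter windows are RefSeq sequence of build GRCm38.p6; the first window listed was used for each of 27025 genes.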

Additional observations from a re-analysis of the deposited data

Results flagged for a closer look

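Among the 166 named genes, 16 had 1 tumor far from the other 3, by a gap that took up nearly the whole range of the 4 tumors; chance alone flags about 1 in 20 such groups. Tumor 1 stood apart in 7 of them. Its Cd5l intensity of 80.5 was far below the other tumors, at 530 to 612, and its Vip of 243, Sst of 6.26, Mrc1 of 64.8, Ttr of 12.1, Myc of 13.8 and Mdk of 297 were above the rest, which read at most 39.3, 2.22, 52.6, 0.606, 5.98 and 271. Tumor 2 was high for the muscle genes Myl1 (34.6), Myh1 (587) and Tnnc2 (267), whose other tumors read at most 9.21, 95.0 and 3.70, and also for Cacna1d (227) and Cd68 (158). Tumor 2 was low for Tfrc, at 974 against 1585 to 1619. Tumor 4 was high for Mcm6 (1072), Cyp21a1 (21.8) and Zap70 (113). Several of these values lie in the dim range, where small differences on the linear scale carry little weight. The sums of the muscle list, 2569 in tumor 2 and 12750 in ganglion 2 against 250 to 647 on the other 4 arrays, moved with the muscle genes, and their part in other results was not tested.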

How the results depend on the processing

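No gene called in the reported fit was called in the opposite direction under any alternative. The count of changed genes, 3283, was 6317 (2924 higher, 3393 lower) with only the 6 compared arrays, 1290 (452, 838) with tumors 1 and 2 only and 799 (257, 542) without tumor 2 and ganglion 2. Leaving out each array in turn gave 848 to 2973 changed genes, 263 to 1299 higher and 585 to 1674 lower, lowest without ganglion 2. With the replicate block the count was 2368 (999 higher, 1369 lower); deviations of same-numbered tumors and ganglia correlated at 0.094 and 0.101 for 2 pairs, so the numbers do not establish a pairing. Quantile normalization gave 1746 higher and 1630 lower genes, 51.7% higher. Mitosis genes that rose numbered 26 as reported, 34 after median centring and 30 after quantile normalization. Of 166 named genes, 149 passed as reported, and 67 of these kept direction and call under every alternative in which they were tested. Leaving out ganglion 2 ended more of these calls than leaving out any other single array. With only the 6 compared arrays, 8 named genes passed that did not pass as reported. Named genes whose sign turned did not pass as reported: the Acta2 log2 fold change was 0.09 after median centring, 0.016 after quantile normalization, 0.26 with the replicate block, 0.41 with tumors 1 and 2 only and 0.42 without tumor 2 and ganglion 2; the Rgs5 log2 fold change was 0.11 and the Ighm log2 fold change -0.07 with the replicate block; Ighm was -0.17 and the Tfrc log2 fold change -0.23 with all probe sets averaged; the Myh1 log2 fold change was 0.83 without tumor 2 and ganglion 2. Leaving out 1 array gave -0.769 to 0.626 for Acta2, -5.084 to 1.684 for Myh1 and -5.845 to 0.089 for the Tnnc2 log2 fold change, highest without ganglion 2. The cause of each was not tested. The small number of arrays limits every value, and dim genes are limited by background.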
